A study of Mus musculus with 12 samples.

Results

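The genes described here are 40 genes of ribosome biogenesis and RNA polymerase I (Pol I) transcription. They were chosen by name from what their products do, with earlier results of these data known. They were 40 of the 43629 genes in the count table, and all 40 were among the 13944 genes with enough counts to be tested. By role, 7 belong to Pol I transcription, 3 to the box C/D and 3 to the box H/ACA small nucleolar ribonucleoproteins (snoRNPs), 6 to nucleolar organisation, 14 to assembly of the small ribosomal subunit and 7 to assembly of the large one. The study sorted pre-T cells out of C57BL/6 thymi by FACS and sequenced total RNA of 3 groups with 4 biological replicates each. DCKO DN3 cells came from mice with the genotype Zfp36l1fl/fl, Zfp36l2fl/fl, CD2cre, in which a Cre recombinase driven by CD2 deletes the floxed genes of the RNA-binding proteins ZFP36L1 and ZFP36L2, and the series calls them DN3-like. Control DN3b and Control DN3a cells came from mice with the same floxed alleles and no CD2cre, so floxed alleles are shared by all 3 groups and the Cre transgene is not. DN3a thymocytes, which lack CD4 and CD8, have yet to pass beta selection, and DN3b thymocytes have passed it; the test is whether their new T cell receptor beta chain signals. The labels used here give neither the ages of the mice nor the surface markers of each gate.

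Ribosomes are made in the nucleolus. Pol I copies the ribosomal DNA repeats into 1 long precursor RNA, which snoRNPs modify at guided positions while assembly factors fold, cut and package it into the small and the large subunit. Production of these factors is high in cells that grow and divide, and pre-T cells that pass beta selection enter a burst of growth and division.

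The libraries held 30401159 to 41258922 counts in DCKO DN3, 32359182 to 41664096 in Control DN3b and 28479157 to 45975678 in Control DN3a. Levels are counts relative to library size (CPM), on library sizes scaled by the trimmed mean of M values (TMM), and they are relative to the RNA of the library. In sorted bulk cells, fewer cells of a type and less RNA per cell cannot be told apart. Zfp36l1 lay at 1.64 to 3.80 CPM in DCKO DN3, against 9.63 to 23.3 in Control DN3b and 27.1 to 43.9 in Control DN3a, and Zfp36l2 at 45.4 to 87.9, 287 to 467 and 341 to 685 CPM in the same order of groups. The 9 markers of DN3 cells summed to 6714 to 11600 CPM in DCKO DN3, 3715 to 5471 in Control DN3b and 6146 to 8218 in Control DN3a. The 5 B cell markers summed to 18.6 to 24.4, 9.73 to 32.1 and 42.5 to 58.3 CPM, the 6 myeloid markers to 9.66 to 20.99, 1.63 to 10.9 and 20.1 to 32.3 CPM, and the 4 NK and innate lymphoid markers to 17.9 to 29.5, 6.24 to 27.6 and 54.5 to 57.9 CPM, each in the order DCKO DN3, Control DN3b and Control DN3a. In that order the 6 thymic stroma markers summed to 89.9 to 153, 82.3 to 164 and 195 to 270 CPM, the 5 erythroid markers to 4.04 to 17.2, 2.73 to 29.3 and 8.19 to 26.0 CPM, and the 3 genes Cd4, Cd8a and Cd8b1 to 4.45 to 16.6, 12.4 to 32.0 and 1.71 to 2.6 CPM. Pax5 and Ncr1 were at 0 in every Control DN3b library, and Foxn1 and Col3a1 were at 0 in every Control DN3a library. Of the 5 B cell markers and of the 4 NK and innate lymphoid markers, only 1 each had enough counts to be tested. Of the 6 myeloid markers 5 did, and of the 6 stroma markers 4. A sum can thus rest on few genes and does not by itself show that such cells were present. The part of such cells in the differences from Control DN3a was not tested.

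Promoters are printed for Rrn3, Utp18 and Nop56, the 3 genes called higher in DCKO DN3 than in Control DN3b at an adjusted p under 0.05. Under 26 alternative settings these calls held in 24, 13 and 7, in that order of genes. The promoter of Nop2, a large subunit gene that was higher in both groups than in Control DN3a, is printed beside them. They show how the upstream letters of such genes vary. Each line gives the 250 bases before the RefSeq gene start (GRCm38.p6), read 5′ to 3′ on the strand of the gene, with the letters CACGTG in capitals. These letters are an E-box, the site that MYC with its partner MAX binds best, and they read the same on both strands.
Rrn3, chr16:13780449-13780698, plus strand: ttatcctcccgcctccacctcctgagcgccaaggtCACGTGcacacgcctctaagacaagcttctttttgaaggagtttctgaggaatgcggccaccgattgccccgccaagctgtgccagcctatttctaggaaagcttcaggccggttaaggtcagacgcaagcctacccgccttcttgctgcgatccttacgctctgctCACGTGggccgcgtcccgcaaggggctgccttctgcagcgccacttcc
Utp18, chr11:93885767-93886016, minus strand: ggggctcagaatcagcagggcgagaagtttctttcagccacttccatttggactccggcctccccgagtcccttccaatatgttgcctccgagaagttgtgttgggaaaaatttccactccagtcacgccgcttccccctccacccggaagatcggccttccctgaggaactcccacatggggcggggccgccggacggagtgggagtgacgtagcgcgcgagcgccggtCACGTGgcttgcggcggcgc
Nop56, chr2:130274162-130274411, plus strand: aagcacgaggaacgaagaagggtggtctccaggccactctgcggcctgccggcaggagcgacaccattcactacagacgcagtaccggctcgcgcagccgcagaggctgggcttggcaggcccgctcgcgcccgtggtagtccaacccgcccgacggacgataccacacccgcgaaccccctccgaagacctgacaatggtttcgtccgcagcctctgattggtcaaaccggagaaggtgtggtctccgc
Nop2, chr6:125131633-125131882, plus strand: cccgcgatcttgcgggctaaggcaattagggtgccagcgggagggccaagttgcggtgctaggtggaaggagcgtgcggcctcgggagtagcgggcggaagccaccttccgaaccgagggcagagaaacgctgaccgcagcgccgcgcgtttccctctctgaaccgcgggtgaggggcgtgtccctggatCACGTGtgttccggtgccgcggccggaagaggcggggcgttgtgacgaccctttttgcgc
Rrn3 held 2 E-boxes in this stretch, Utp18 and Nop2 held 1 each, and Nop56 held none. The RefSeq start of Utp18 is that of the GENCODE gene, and those of Rrn3, Nop56 and Nop2 lie 9, 18 and 26 bases upstream of theirs.

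RefSeq windows running from 250 bases before to 50 bases after a start were at hand for 35 of the 40 genes, as 43 windows. CACGTG stood in 10 of the 43 windows (23.3%), against 9.89% of the 12451 windows of all genes tested and 7.15% of all 32851 windows. The genes that hold it are Rrn3, Utp18, Nop2, Utp4, Ltv1, Utp20, Pes1, Mybbp1a, Tsr1 and Wdr43, and only Rrn3 held more than 1. Of the 11 E-boxes, 4 lay before the start and 7 in the 50 bases after it. Searched on both strands, CCGGAAG, a core bound by ETS factors, stood in 27.9% of the 43 windows, against 2237 of the 12451 windows of all genes tested, TCTCGCG, a core bound by BANP, in 16.3% against 5.36%, and GCCATNTT, a core bound by YY1, in 4.65% against 8.56%. These shares describe letters, and no binding was measured.

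As a group, the 40 genes took overlapping shares of the RNA in DCKO DN3 and Control DN3b and a smaller one in Control DN3a. They made up 1.07% ± 0.0588 of all raw counts in DCKO DN3, 1.06% ± 0.152 in Control DN3b and 0.600% ± 0.0527 in Control DN3a (mean ± SD, n = 4 each), a share that does not depend on TMM scaling. The lowest share in DCKO DN3 was 0.995% and the lowest in Control DN3b 0.872%, against a highest of 0.670% in Control DN3a. Neither DCKO DN3 nor Control DN3b therefore overlapped Control DN3a. The median of the 40 genes, as log2 CPM minus the Control DN3a mean of the same gene, was 0.95 to 1.19 in the 4 DCKO DN3 libraries and 0.64 to 1.17 in the 4 Control DN3b libraries. In the Control DN3a libraries it was -0.07 to 0.19.

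**Figure D1:**
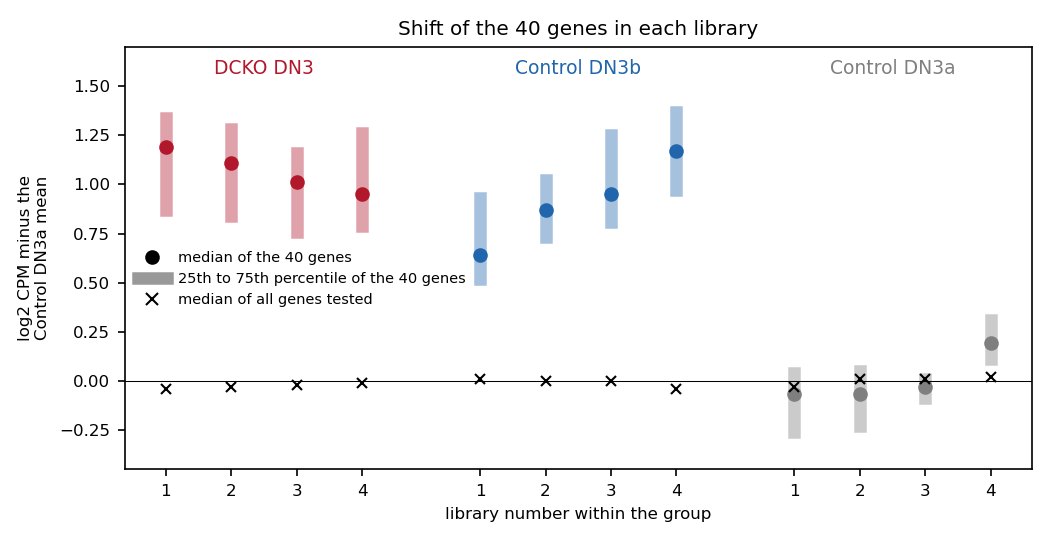
Shift of the 40 genes in each library. Circles are the median over the 40 genes of log2 CPM minus the Control DN3a mean of the same gene, shaded bars run from the 25th to the 75th percentile, and crosses are the median over all genes tested. The DCKO DN3 medians lie at 0.95 to 1.19 and the Control DN3b medians at 0.64 to 1.17, above the Control DN3a libraries at -0.07 to 0.19.

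Within a group, the same library was high or low for most of the genes. Control DN3b library 4 was the highest of its group for 37 of the 40 genes, and Control DN3b library 1 was the lowest for 29. Control DN3a library 4 was the highest of its group for 31 genes, and DCKO DN3 library 1 for 23. These counts were not made over all genes tested, so they do not show a trait particular to the 40 genes. Across the 40 genes the coefficient of variation over 4 libraries had a median of 10.6% in DCKO DN3, 16.7% in Control DN3b and 14.5% in Control DN3a, and it ran up to 30.5%, 29.5% and 39.0% in the same order. In the comparisons, DCKO DN3 is set against both controls and Control DN3b against Control DN3a, so each pair of comparisons shares libraries and their values for a gene are not independent.

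Levels per kilobase of the longest principal transcript set genes side by side, but they depend on the transcript taken for each gene. On this scale the highest level was that of Npm1, which encodes nucleophosmin, a histone and ribosomal protein chaperone of the nucleolus. Npm1 stood at 2003 CPM per kb in DCKO DN3, 1606 in Control DN3b and 641 in Control DN3a. Nop56 followed at 347, 281 and 156 CPM per kb, and Nop58 at 269, 236 and 119 CPM per kb. Both encode core proteins of box C/D snoRNPs. Ncl stood at 103.5, 108.4 and 50.77 CPM per kb on a transcript of 8202 bases, and a shorter transcript would raise its place. For Wdr12 the transcript taken had 10012 bases. At the low end were Bysl at 14.9, 15.1 and 4.98 CPM per kb and the Pol I subunit gene Polr1e at 13.4, 14.7 and 9.92 CPM per kb, each in the order DCKO DN3, Control DN3b and Control DN3a.

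The first comparison asks whether these genes differ between DCKO DN3 cells and control cells that have passed beta selection. Against Control DN3b, 3 of the 40 genes were higher in DCKO DN3 and 0 were lower at an adjusted p under 0.05 from edgeR. At an unadjusted p under 0.05, 2 were lower, Polr1c and Ubtf, and DESeq2 and limma-voom also called 0 lower after adjustment. Over all genes tested 10.3% were higher and 8.58% lower, so the 7.5% of the 40 genes called higher was no larger a share than that background. The libraries of DCKO DN3 lay wholly above those of Control DN3b for 2 of the 40 genes, Rrn3 and Nop56, against 11.0% of all genes tested. The median log2 fold change of the 40 genes was 0.11, against -0.02 over all genes tested, and single genes ran from -0.28 to 0.55. The 3 genes were Rrn3, Utp18 and Nop56.

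Rrn3 encodes TIF-IA, the initiation factor that links Pol I to the promoter of the ribosomal DNA and through which growth signals set Pol I activity. It lies on chromosome 16 at 13780708 to 13814839 (GRCm38). Rrn3 had 303, 272, 237 and 229 CPM in the 4 DCKO DN3 libraries, against 170, 168, 173 and 202 CPM in Control DN3b and 142, 129, 120 and 134 CPM in Control DN3a. Every DCKO DN3 library was above every control library, and every Control DN3b library was above every Control DN3a library. Rrn3 was 1.46-fold higher in DCKO DN3 than in Control DN3b (95% interval 1.24 to 1.73; log2 0.55 ± 0.11 SE, adjusted p = 0.0038) and 1.98-fold higher than in Control DN3a (log2 0.99 ± 0.11, adjusted p = 1.2e-05). The call against Control DN3b held under 24 of 26 alternatives, with log2 fold changes of 0.38 to 0.60. The call was lost when DCKO DN3 libraries 1 and 2 were both left out (log2 0.38, adjusted p = 0.076). It was also lost in a fit of the 8 libraries with the replicate number as a block (log2 0.53, adjusted p = 0.0591). These numbers do not pair DCKO DN3 with Control DN3b libraries.

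None of the other 6 Pol I genes was called between DCKO DN3 and Control DN3b. Polr1a encodes the largest subunit of Pol I, and had 182, 168, 147 and 170 CPM in DCKO DN3, 168, 167, 194 and 198 CPM in Control DN3b and 108, 101, 110 and 118 CPM in Control DN3a. Polr1b encodes the subunit that forms the active centre with it, and had 181, 160, 138 and 160 CPM in DCKO DN3, 149, 162, 181 and 198 CPM in Control DN3b and 76.8, 69.7, 75.9 and 90.2 CPM in Control DN3a. For both genes the DCKO DN3 and Control DN3b libraries overlapped and all of them lay above Control DN3a. Polr1a was 1.53-fold (log2 0.61 ± 0.10, adjusted p = 0.00014) and Polr1b 2.04-fold higher in DCKO DN3 than in Control DN3a (log2 1.03 ± 0.12, adjusted p = 1.6e-05).

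Polr1c, a subunit shared by Pol I and Pol III, had 69.3, 63.5, 53.7 and 68.0 CPM in DCKO DN3, 68.7, 75.5, 80.8 and 84.6 CPM in Control DN3b and 41.9, 35.6, 45.3 and 39.7 CPM in Control DN3a. Polr1e, a Pol I subunit that acts in initiation and elongation, had 46.4, 40.2, 36.3 and 36.8 CPM in DCKO DN3, 40.1, 41.6, 42.7 and 51.2 CPM in Control DN3b and 28.9, 28.4, 29.9 and 31.4 CPM in Control DN3a. For Polr1c, DCKO DN3 and Control DN3b overlapped only through library 1 of each, for Polr1e more widely, and both groups lay above Control DN3a. Polr1c had a log2 fold change of -0.28 ± 0.11 between DCKO DN3 and Control DN3b (adjusted p = 0.090), and Polr1e one of -0.14 ± 0.11 (adjusted p = 0.40). Against Control DN3a, Polr1c was 1.57-fold (adjusted p = 0.00028) and Polr1e 1.35-fold higher in DCKO DN3 (adjusted p = 0.0044), but Polr1e was not called when libraries were scaled by upper quartiles or by totals alone, or without DCKO DN3 libraries 1 and 2.

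Ubtf encodes UBF, the architectural protein that keeps ribosomal DNA repeats open. It had 313, 288, 302 and 340 CPM in DCKO DN3, 337, 323, 385 and 422 CPM in Control DN3b and 237, 187, 228 and 228 CPM in Control DN3a. The DCKO DN3 and Control DN3b values overlapped only in that DCKO DN3 library 4 exceeded Control DN3b libraries 1 and 2, and the log2 fold change was -0.24 ± 0.11 (adjusted p = 0.15). Scaled by upper quartiles, Polr1c and Ubtf were called lower in DCKO DN3 than in Control DN3b, and scaled by library totals alone those and also Polr1a and Polr1e were. Ubtf was 1.41-fold higher in DCKO DN3 than in Control DN3a (log2 0.50 ± 0.11, adjusted p = 0.0018), a call lost with library totals alone (adjusted p = 0.20).

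Taf1d, a subunit of the selectivity factor that recruits Pol I to its promoter, had 137, 123, 110 and 98.3 CPM in DCKO DN3, 85.4, 105, 96.98 and 116 CPM in Control DN3b and 66.1, 89.2, 77.1 and 81.4 CPM in Control DN3a. Control DN3b overlapped both other groups, and DCKO DN3 lay wholly above Control DN3a. Annotated exons of Taf1d overlap 8 snoRNA genes on the same strand, so its reads are uncertain. Its difference between Control DN3b and Control DN3a (log2 0.36 ± 0.13, adjusted p = 0.031) was not called under 7 of 26 alternatives, among them leaving out Control DN3b library 2, 3 or 4 or Control DN3a library 1 or 3. The difference between DCKO DN3 and Control DN3a (log2 0.58 ± 0.13, adjusted p = 0.0020) was not called with library totals alone or without DCKO DN3 libraries 1 and 2.

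**Figure D2:**
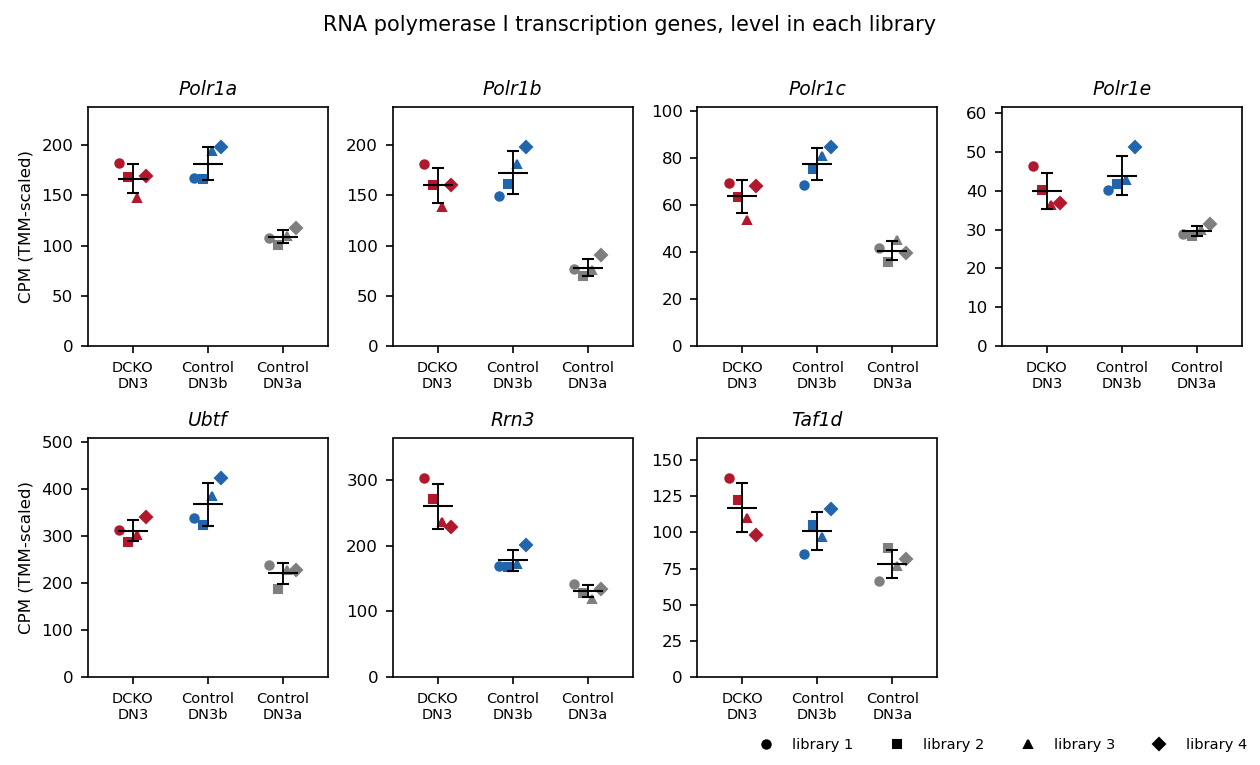
Level of the 7 Pol I transcription genes in each library, in CPM. Each marker is 1 library, with a shape for its number; bars show the mean and SD of 4 libraries. Rrn3 lies at 229 to 303 CPM in DCKO DN3 against 168 to 202 CPM in Control DN3b, while for the other 6 genes those groups overlap.

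Utp18 encodes a protein of the small subunit processome, the complex that assembles on the nascent precursor RNA. Utp18 had 178, 145, 141 and 127 CPM in DCKO DN3, against 89.9, 105, 97.2 and 134 CPM in Control DN3b and 52.1, 65.0, 56.3 and 67.8 CPM in Control DN3a. Control DN3b library 4 lay within the DCKO DN3 range and the other 3 below it. It was 1.39-fold higher in DCKO DN3 than in Control DN3b (95% interval 1.11 to 1.73; log2 0.47 ± 0.14, adjusted p = 0.035). The call held under 13 of 26 alternatives, with adjusted p from 0.0093 to 0.30, and was lost on leaving out DCKO DN3 library 1, 2 or 3 or Control DN3b library 1, 2 or 3.

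Nop56, a core protein of box C/D snoRNPs, which guide methylation of ribosomal RNA, had 721, 631, 608 and 646 CPM in DCKO DN3. Nop56 had 457, 530, 544 and 583 CPM in Control DN3b and 284, 287, 292 and 311 CPM in Control DN3a. The 3 groups did not overlap. Nop56 was 1.23-fold higher in DCKO DN3 than in Control DN3b (95% interval 1.06 to 1.44; log2 0.30 ± 0.10, adjusted p = 0.044), and the call held under 7 of 26 alternatives, with adjusted p from 0.013 to 0.26. Of the alternatives that leave out 1 library, it held only without Control DN3b library 4, so leaving out any of the other 11 ended it. Its annotated exons also overlap 4 snoRNA genes on the same strand, each with 0 counts in the 12 libraries.

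For the other 37 genes the 95% interval of the fold between DCKO DN3 and Control DN3b bounds what the 4 libraries a group allow. For Rrp1b, a large subunit factor, it ran from 0.877 to 1.17, and for Pes1, a subunit of the PeBoW complex, from 0.926 to 1.26. For Ncl, which encodes nucleolin, it ran from 0.645 to 1.41. Ncl stood at 627, 1111, 1032 and 627 CPM in DCKO DN3 and at 518, 948, 956 and 1136 CPM in Control DN3b, so it spread widely within both. A missing call does not show equal levels.

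The fold between DCKO DN3 and Control DN3b moved with the base composition of the transcript. Across the 40 genes, which share all libraries, Spearman's rho between GC content and the log2 fold change was -0.67, against 0.21 for DCKO DN3 against Control DN3a and 0.51 for Control DN3b against Control DN3a. Utp18 has 42.7%, Rrn3 46.4% and Nop56 50.5% GC, in a range that runs from 40.4% in Wdr12 to 59.8% in Rrp9. Within groups, too, the deviation of some libraries from their group mean went with GC content across the 40 genes. The strongest rho of each group was 0.91 in DCKO DN3 library 4, -0.80 in Control DN3b library 2 and -0.88 in Control DN3a library 2. In the other libraries rho ran from -0.40 to 0.63, and it was -0.04 in Control DN3a library 4. A GC trend was fitted to the deviation of each library from the mean of all libraries. Removing it also removes any group difference that goes with GC content. With this trend removed in each library, Rrn3 (log2 0.46, adjusted p = 0.00966) and Nop56 (log2 0.32, adjusted p = 0.0256) were still called higher in DCKO DN3 than in Control DN3b. Utp18 was not (log2 0.31, adjusted p = 0.0605). Rrp9, a component of the U3 snoRNP named after its values were seen, was called with the trend removed (log2 0.52, adjusted p = 0.026) and not otherwise (log2 0.13 ± 0.26, adjusted p = 0.76).

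**Figure D3:**
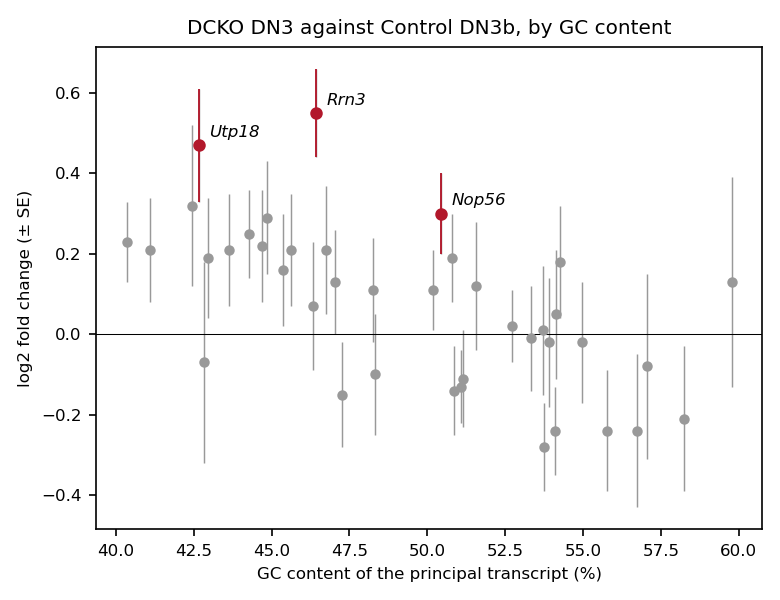
Log2 fold change of DCKO DN3 against Control DN3b (± SE) of the 40 genes by the GC content of the principal transcript in percent. Red points are the 3 genes called higher, Utp18, Rrn3 and Nop56; Spearman's rho over the 40 genes is -0.67.

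Against Control DN3a, the cells before beta selection, all 40 genes were higher in DCKO DN3. Over all genes tested 30.7% were called higher and 29.5% lower. DCKO DN3 and Control DN3a libraries did not overlap for any of the 40 genes, against 27.8% of all genes tested that had DCKO DN3 wholly above. Of the 40 genes, 25 were called higher by at least 2-fold, against 10.9% of all genes tested. The median log2 fold change was 1.04, against -0.04 over all genes tested, with a range of 0.43 to 1.67. By role the median was 0.61 for Pol I transcription, 1.15 for box C/D and 1.32 for box H/ACA snoRNPs, 1.16 for nucleolar organisation, and 1.02 each for small and large subunit assembly. The count of 40 was 39 with upper quartile scaling, 35 with library totals alone and 38 without DCKO DN3 libraries 1 and 2.

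Control DN3b against Control DN3a gives the change across beta selection in control mice. All 40 genes were higher in Control DN3b, while over all genes tested 27.4% were higher and 25.2% lower. For 37 of the 40 genes every Control DN3b library lay above every Control DN3a library, against 24.8% of all genes tested, and the 3 exceptions were Taf1d, Ncl and Nop14. Of the 40, 14 were called higher by at least 2-fold, against 8.96% of all genes tested. The median log2 fold change was 0.91, against -0.02 over all genes tested, from 0.34 for Wdr12 to 1.63 for Rrp12. By role it was 0.74 for Pol I transcription, 0.99 for box C/D and 1.40 for box H/ACA snoRNPs, 1.11 for nucleolar organisation, 0.85 for small and 0.97 for large subunit assembly. The Control DN3b and Control DN3a libraries of the same number deviated from their group means together. In all 4 such pairs the Control DN3b library was the higher for all 40 genes, by 1.18- to 3.43-fold. For the 37 genes above this follows from the separation of the groups, and the share over all genes tested was not computed. The fit did not use this pairing, and adding the replicate number as a block changed no call of the 40 genes in this comparison.

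**Figure D4:**
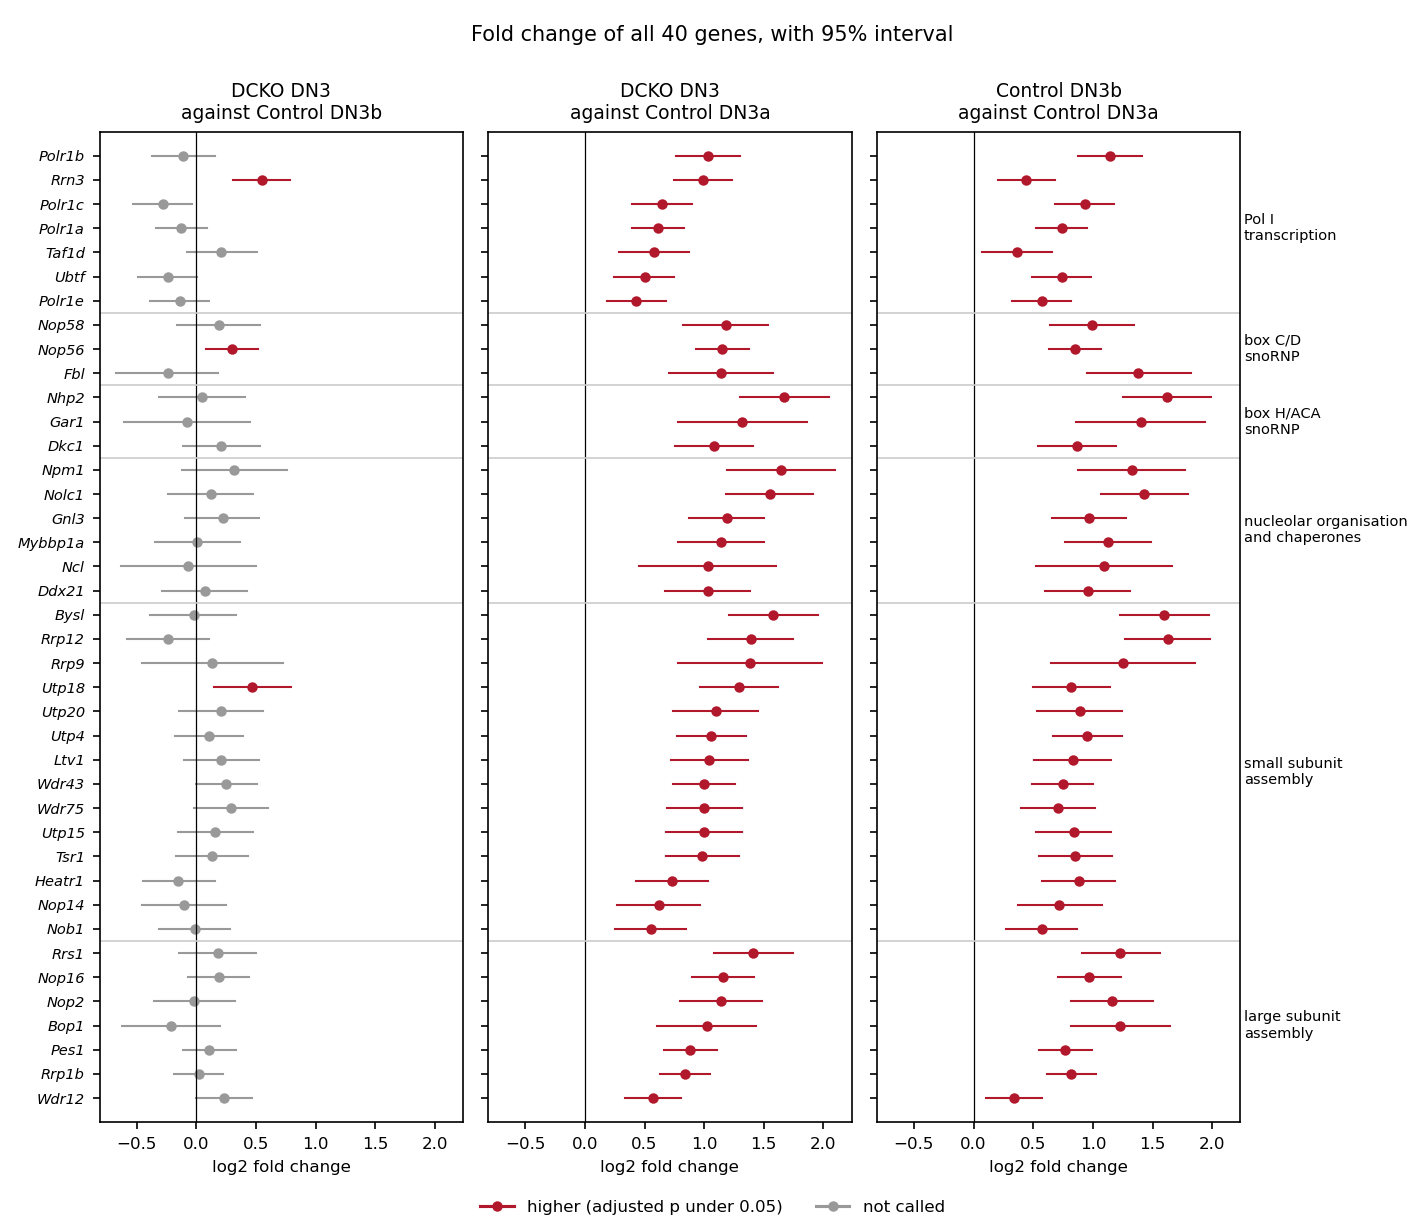
Log2 fold change of the 40 genes in the 3 comparisons, grouped by role, with 95% intervals as bars. Red points passed an adjusted p of 0.05 and grey ones did not; 3 genes are red in DCKO DN3 against Control DN3b and all 40 in each comparison with Control DN3a.

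Nhp2 encodes a core protein of box H/ACA snoRNPs, which guide pseudouridine formation in ribosomal RNA and also form part of telomerase. It had 136, 100.3, 91.9 and 126 CPM in DCKO DN3, 112, 92.4, 110 and 124 CPM in Control DN3b and 43.8, 26.9, 34.3 and 37.2 CPM in Control DN3a. DCKO DN3 and Control DN3b overlapped throughout and lay above Control DN3a. Nhp2 was 3.19-fold higher in DCKO DN3 than in Control DN3a (log2 1.67 ± 0.16, adjusted p = 6.7e-06), with the largest log2 fold change of the 40 genes in that comparison. It was 3.08-fold higher in Control DN3b than in Control DN3a (log2 1.62 ± 0.16, adjusted p = 3e-05).

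Dkc1 encodes dyskerin, the pseudouridine synthase of the same particles. Dkc1 had 481, 459, 427 and 374 CPM in DCKO DN3, 297, 379, 363 and 461 CPM in Control DN3b and 169, 216, 200 and 239 CPM in Control DN3a. DCKO DN3 and Control DN3b overlapped and lay above Control DN3a. Dkc1 was 2.12-fold higher in DCKO DN3 than in Control DN3a (log2 1.08 ± 0.14, adjusted p = 4.8e-05) and 1.82-fold higher in Control DN3b than in Control DN3a (log2 0.87 ± 0.14, adjusted p = 0.00037). Gar1, the third member of these particles among the 40 genes, averaged 27.5 ± 4.15 CPM in DCKO DN3, 29.1 ± 7.82 in Control DN3b and 11.02 ± 3.49 in Control DN3a.

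Of the box C/D proteins, Fbl, the methyltransferase fibrillarin, averaged 123 ± 16.0 CPM in DCKO DN3, 145 ± 37.9 in Control DN3b and 55.7 ± 11.8 in Control DN3a. Nop58 averaged 461 ± 53.6 CPM in DCKO DN3, 404 ± 75.2 in Control DN3b and 204 ± 35.4 in Control DN3a. All 3 box C/D genes were higher than in Control DN3a by at least 2-fold in DCKO DN3, and Fbl alone was in Control DN3b.

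Npm1 was the most abundant of the 40 genes, with 4022, 3545, 3045 and 2469 CPM in DCKO DN3, 2001, 2528, 2544 and 3419 CPM in Control DN3b and 810, 1049, 1021 and 1304 CPM in Control DN3a. Control DN3b library 4 was above DCKO DN3 libraries 3 and 4, Control DN3b libraries 2 and 3 were above DCKO DN3 library 4, and all Control DN3a libraries were below both other groups. Npm1 was 3.13-fold higher in DCKO DN3 than in Control DN3a (log2 1.64 ± 0.20, adjusted p = 2.5e-05) and 2.51-fold higher in Control DN3b than in Control DN3a (log2 1.33 ± 0.20, adjusted p = 0.00019). The other nucleolar genes, Ncl, Nolc1, Gnl3, which encodes nucleostemin, Mybbp1a and the helicase gene Ddx21, were 2.04- to 2.93-fold higher in DCKO DN3 and 1.94- to 2.70-fold higher in Control DN3b than in Control DN3a.

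Among small subunit factors, Bysl, which encodes bystin, had 56.6, 58.7, 51.7 and 62.2 CPM in DCKO DN3, 51.3, 50.2, 59.3 and 72.4 CPM in Control DN3b and 19.6, 14.6, 17.6 and 25.1 CPM in Control DN3a. Rrp12, an export factor of ribosomal subunits in yeast, had 75.6, 71.3, 63.1 and 92.1 CPM in DCKO DN3, 77.9, 76.5, 95.4 and 106 CPM in Control DN3b and 28.6, 23.4, 28.1 and 35.4 CPM in Control DN3a. For both genes DCKO DN3 overlapped Control DN3b, and neither reached down to Control DN3a. Bysl was 2.99-fold (log2 1.58 ± 0.16, adjusted p = 9.2e-06) and Rrp12 2.62-fold higher in DCKO DN3 than in Control DN3a (log2 1.39 ± 0.16, adjusted p = 1.5e-05). Both were also higher in Control DN3b than in Control DN3a, Bysl 3.04-fold (adjusted p = 3.2e-05) and Rrp12 3.08-fold (adjusted p = 2.6e-05). Exons of Bysl and of Ccnd3 on the other strand overlap over 361 bases, and how strand was used in counting is not given in the sources used here.

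Wdr43, a processome component, had 432, 381, 372 and 340 CPM in DCKO DN3, 285, 309, 313 and 373 CPM in Control DN3b and 172, 196, 178 and 217 CPM in Control DN3a. DCKO DN3 overlapped Control DN3b only through Control DN3b library 4, and Control DN3a lay below both. Wdr43 was 2.0-fold higher in DCKO DN3 than in Control DN3a (log2 1.0 ± 0.11, adjusted p = 1.6e-05) and 1.68-fold higher in Control DN3b than in Control DN3a (log2 0.75 ± 0.11, adjusted p = 0.00020). The 14 small subunit genes spanned log2 fold changes of 0.55 to 1.58 in DCKO DN3 and 0.57 to 1.63 in Control DN3b against Control DN3a. The smallest were those of Nob1, the nuclease that makes the final cut of small subunit RNA, in both comparisons. The calls of Nop14 and Nob1 in DCKO DN3 against Control DN3a were lost with library totals alone, where adjusted p was 0.11 and 0.19.

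Of the large subunit factors, Nop2, a methyltransferase of large subunit RNA, had 235, 186, 174 and 234 CPM in DCKO DN3, 213, 182, 212 and 232 CPM in Control DN3b and 120, 73.8, 84.9 and 98.03 CPM in Control DN3a. DCKO DN3 and Control DN3b overlapped fully and neither reached Control DN3a. Nop2 was 2.20-fold higher in DCKO DN3 than in Control DN3a (log2 1.14 ± 0.15, adjusted p = 4.8e-05) and 2.23-fold higher in Control DN3b than in Control DN3a (log2 1.16 ± 0.15, adjusted p = 8.5e-05). The PeBoW complex, which acts in large subunit processing, is encoded by Pes1, Bop1 and Wdr12. These were 1.84-, 2.03- and 1.49-fold higher in DCKO DN3 and 1.71-, 2.35- and 1.26-fold higher in Control DN3b than in Control DN3a, each in that order of genes. Wdr12 had the smallest change of the 40 genes across beta selection (log2 0.34 ± 0.10, adjusted p = 0.015), and its call was lost without Control DN3b library 4 and with upper quartile or total scaling, where adjusted p reached 0.20.

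**Figure D5:**
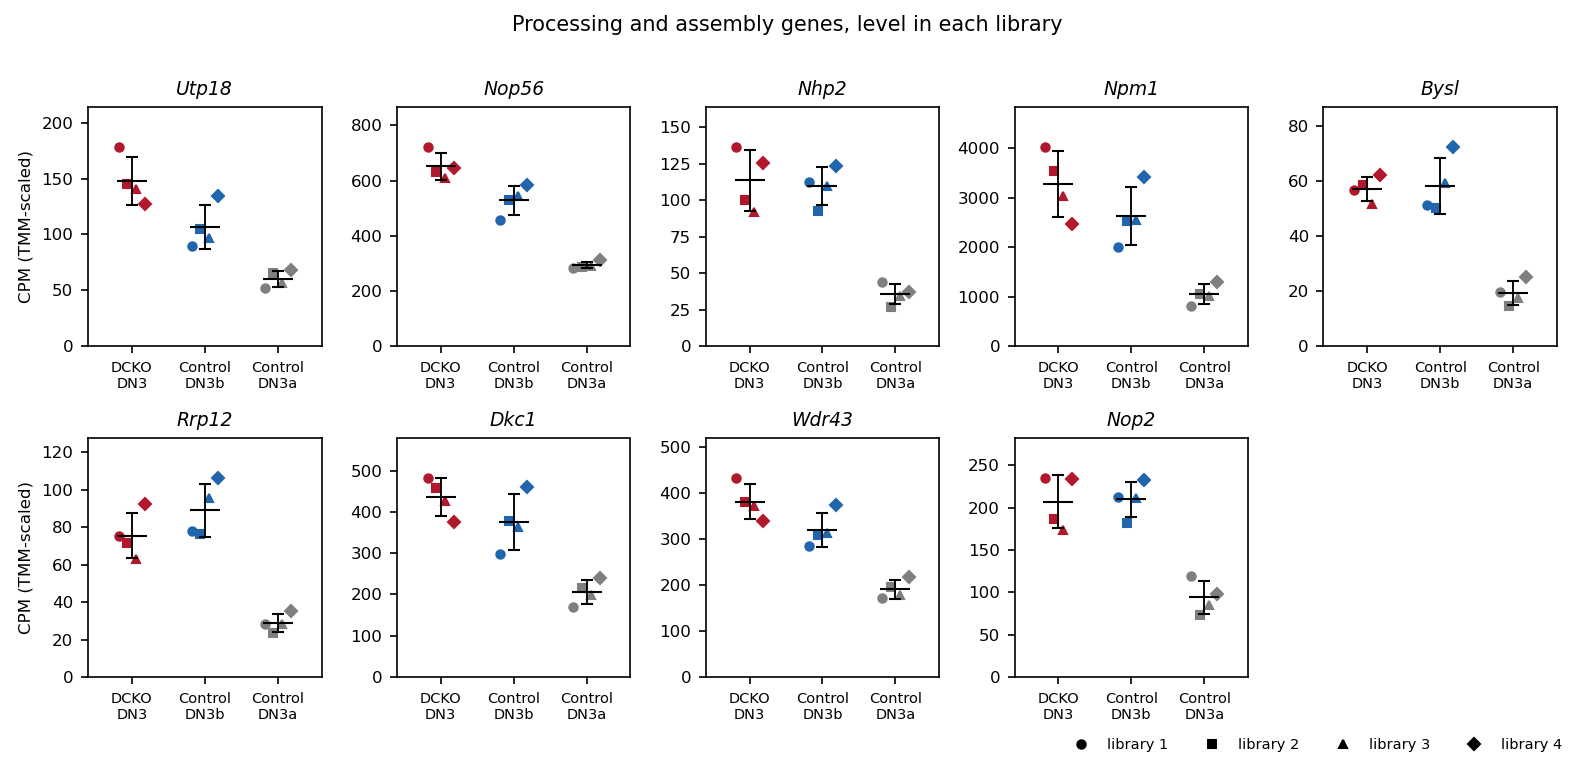
Level in CPM of 9 genes of RNA modification and ribosome assembly in each library, with the mean and SD of 4 libraries as bars and a marker shape for the library number. In all 9 genes the Control DN3a libraries lie lowest, and DCKO DN3 overlaps Control DN3b in every gene but Nop56.

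Of the 40 genes, 8 are hosts to 29 annotated snoRNA genes (Taf1d 8, Nop56 5, Nop58 4, Ncl 3, Gnl3 3, Wdr43 3, Tsr1 2 and Dkc1 1), and 22 of these had enough counts to be tested. Of the 22, 0 were called in DCKO DN3 against Control DN3b by edgeR, DESeq2 or limma-voom, and 1 had an unadjusted p under 0.05 by edgeR. Against Control DN3a, 5 were higher and 3 lower in DCKO DN3, and 1 was higher and 1 lower in Control DN3b, while all 8 host genes were higher in both. These shares of the 22 snoRNA genes, 22.7% higher and 13.6% lower in DCKO DN3 and 4.55% each way in Control DN3b, were below those of all genes tested (30.7% and 29.5%, and 27.4% and 25.2%). The 3 lower snoRNA genes all lie in Taf1d. Mature snoRNAs are shorter than the fragments that such libraries are made to keep.

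The rest of the pathway was read from 115 other genes of ribosome assembly, snoRNPs and Pol I, of which 114 were tested. These too were chosen with earlier results of these data known. Of the 114, 16 (14.04%) were higher and 2 (1.75%) lower in DCKO DN3 against Control DN3b, where 10.3% of all genes tested were higher and 8.58% lower. Against Control DN3a, 97 (85.1%) were higher and 3 (2.63%) lower in DCKO DN3, where 30.7% of all genes tested were higher and 29.5% lower. In Control DN3b 94 (82.5%) were higher and 4 (3.51%) lower than in Control DN3a, against 27.4% and 25.2% of all genes tested. Of 41 other small subunit factors tested, 36 (87.8%) were higher in DCKO DN3 and 35 (85.4%) in Control DN3b than in Control DN3a. Of 49 other large subunit factors, 43 (87.8%) and 41 (83.7%) were. Among the large subunit factors, Ebna1bp2 averaged 221 ± 27.1 CPM in DCKO DN3, 155 ± 12.9 in Control DN3b and 77.8 ± 5.75 in Control DN3a, and Rpf2, which brings the 5S particle into the large subunit, 141 ± 21.4, 82.2 ± 13.5 and 47.6 ± 6.25 CPM in the same order. Both were also higher in DCKO DN3 than in Control DN3b (Ebna1bp2 log2 0.51 ± 0.10, adjusted p = 0.0048; Rpf2 log2 0.77 ± 0.14, adjusted p = 0.0028). Riok3, a kinase of small subunit maturation, had 204 ± 16.5 CPM in DCKO DN3, 110 ± 14.3 in Control DN3b and 153 ± 7.52 in Control DN3a. It was higher in DCKO DN3 than in Control DN3b (log2 0.89 ± 0.10, adjusted p = 0.00012) and lower in Control DN3b than in Control DN3a (log2 -0.48 ± 0.10, adjusted p = 0.0019).

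The 15 other Pol I genes were 9 higher and 2 lower in DCKO DN3 against Control DN3a, and 9 higher and 3 lower in Control DN3b against Control DN3a. The higher share, 60% in each, was above that of all genes tested (30.7% and 27.4%). The lower share, 13.3% in DCKO DN3 and 3 of 15 in Control DN3b, was below theirs (29.5% and 25.2%). Among those higher in both comparisons were Polr2e, Polr2f, Polr2h, Polr2k and Polr2l, subunits common to the nuclear RNA polymerases. Cavin1, higher in DCKO DN3, averaged 0.503 CPM there and 0.160 in Control DN3a. Taf1a was lower than in Control DN3a in DCKO DN3 (log2 -0.29 ± 0.10, adjusted p = 0.024) and in Control DN3b (log2 -0.27 ± 0.10, adjusted p = 0.042). Ttf1 was lower in Control DN3b (log2 -0.24 ± 0.09, adjusted p = 0.041). Baz2a, the TIP5 subunit of the complex that silences ribosomal DNA repeats, averaged 107 ± 15.5 CPM in DCKO DN3, 98.5 ± 11.6 in Control DN3b and 196 ± 19.4 in Control DN3a. Baz2a was lower than in Control DN3a in DCKO DN3 (log2 -0.88 ± 0.13, adjusted p = 7.5e-05) and in Control DN3b (log2 -0.99 ± 0.13, adjusted p = 7.1e-05). Znrd1, a Pol I subunit that takes part in RNA cleavage, averaged 33.2 ± 4.03 CPM in DCKO DN3, 50.1 ± 2.88 in Control DN3b and 35.3 ± 2.17 in Control DN3a. It was lower in DCKO DN3 than in Control DN3b (log2 -0.59 ± 0.10, adjusted p = 0.0018). Polr2k, a small subunit common to the nuclear RNA polymerases, was higher in DCKO DN3 than in Control DN3b (log2 0.73 ± 0.14, adjusted p = 0.0034).

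Of 21 Pol III genes tested, 3 were higher and 1 lower in DCKO DN3 against Control DN3b, 11 higher and 4 lower in DCKO DN3 against Control DN3a, and 8 higher and 3 lower in Control DN3b against Control DN3a. In the first of these comparisons that was 14.3% higher and 4.76% lower, against 10.3% and 8.58% of all genes tested. In DCKO DN3 against Control DN3a it was 52.4% and 19.0%, against 30.7% and 29.5%, and in Control DN3b against Control DN3a 38.1% and 14.3%, against 27.4% and 25.2%. Polr3gl, which encodes a paralogue of the Pol III subunit gene Polr3g, averaged 5.93 ± 1.03 CPM in DCKO DN3, 9.62 ± 1.40 in Control DN3b and 12.7 ± 0.399 in Control DN3a. It was the 1 Pol III gene lower in DCKO DN3 than in Control DN3b (log2 -0.70 ± 0.16, adjusted p = 0.0083), and among the lower Pol III genes it had the smallest adjusted p in DCKO DN3 against Control DN3a (log2 -1.09 ± 0.16, adjusted p = 7.8e-05). In Control DN3b against Control DN3a the lower gene with the smallest adjusted p was Polr3b, which encodes the second largest Pol III subunit, with 73.9 ± 2.6 CPM in Control DN3b and 95.5 ± 8.67 in Control DN3a (log2 -0.37 ± 0.08, adjusted p = 0.0028). Maf1, which encodes a repressor of Pol III, averaged 93.4 ± 10.2 CPM in DCKO DN3, 100.3 ± 17.6 in Control DN3b and 131 ± 19.8 in Control DN3a. Maf1 was lower than in Control DN3a in DCKO DN3 (log2 -0.49 ± 0.14, adjusted p = 0.0079) and in Control DN3b (log2 -0.39 ± 0.14, adjusted p = 0.031). Polr3d, a Pol III subunit gene, averaged 40.6 ± 3.31 CPM in DCKO DN3, 27.6 ± 2.53 in Control DN3b and 19.8 ± 2.13 in Control DN3a, and was higher in DCKO DN3 than in Control DN3b (log2 0.56 ± 0.11, adjusted p = 0.0044).

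In the authors' deposited tables, 2 of the 40 genes, Rrn3 and Utp18, were higher in DCKO DN3 than in Control DN3b at an adjusted p under 0.05, against 10.5% of the genes with an adjusted p there. In the authors' deposited tables all 40 were higher than in Control DN3a in DCKO DN3 and in Control DN3b, against 23.8% and 22.0% of the genes with an adjusted p. For Rrn3 the authors' deposited table gave a log2 fold change of 0.53 with an adjusted p of 0.00084 between DCKO DN3 and Control DN3b.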

How the data were processed

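Counts per Ensembl gene were deposited by the authors as whole numbers. Per the submitters' processing notes, the tools were HTSeq, TopHat2 2.0.12, Trim Galore and DESeq2 1.6.3, with GRCm38 as the build. Which annotation release was counted, and whether strand was used, is not given in the sources used here. Overlapping genes, antisense genes and near-identical copies are therefore uncertain. RNA was purified with an RNeasy Micro kit and made into stranded total RNA libraries after ribosomal RNA removal, per the labels' protocols. The authors' deposited tables of log2 fold changes and adjusted p-values were used only where named. The 43629 genes were named and placed with GENCODE M21, and levels per kilobase use its longest principal transcript, since exon unions hold retained introns.

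Low genes were removed by filterByExpr at a count minimum of 10. All 12 libraries entered 1 edgeR 4.0.16 quasi-likelihood fit in R 4.3.3 (TMM factors, group as the only term, 9 residual degrees of freedom, two-sided), with Benjamini-Hochberg adjustment over 13944 genes and a threshold of 0.05; every adjusted p is from edgeR unless another tool is named. SE is the log2 fold change divided by the square root of F, and 95% intervals use it with 9 degrees of freedom. Correlations and medians are descriptions. The fit was tested on simulated data. No pair of replicates was alike within counting noise; intervals on counts were not used, and PCR copies are not separated from molecules.

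Alternatives were other scalings, filters, DESeq2 1.42.0, limma-voom (limma 3.58.1), replicate blocks, each library left out, and a per-library lowess trend on transcript GC content (13825 genes; all 40 members had one), the last chosen after seeing the data. Same-numbered control libraries deviated together (r of 0.354 to 0.564 in the 4 pairs of Control DN3b and Control DN3a), so these numbers were taken to pair the controls; DCKO DN3 numbers did not pair (-0.257 to 0.119). The 40 genes and the other gene lists were chosen with earlier results of these data known. Values per library are given for every Pol I gene, the 3 largest called rises per comparison and genes called between DCKO DN3 and Control DN3b. They are also given for the gene with the highest level per kilobase in each other role. From other lists, genes named are among the 2 with the smallest adjusted p in a direction and comparison, except Polr2e, Polr2f and Polr2l. Riok2 and Gtf3c2 were not analysed here.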

Additional observations from a re-analysis of the deposited data

Results flagged for a closer look

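In 3 of the 120 sets of 4 libraries (40 genes in 3 groups), 1 library stood far from the other 3, where chance alone picks out about 1 in 20 such sets. Rrn3 had 201.7 CPM in Control DN3b library 4, against 168.1 to 172.6 CPM in the other 3, and without that library Rrn3 was still higher in DCKO DN3 than in Control DN3b (log2 0.59, adjusted p = 0.00333). Pes1, of the PeBoW complex, had 104.9 CPM in Control DN3a library 2, against 120.7 to 123.9 CPM in the other 3. Rrs1, a factor that brings the 5S particle to the large subunit in yeast, had 36.52 CPM in Control DN3a library 4, against 24.87 to 26.28 CPM in the other 3.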

How the results depend on the processing

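Between DCKO DN3 and Control DN3b the count of genes higher was 3. It was 1 with upper quartile factors, with library totals alone and in a fit of the 8 libraries of the comparison, and 0 without DCKO DN3 libraries 1 and 2. Leaving out 1 library gave 1 to 3, with 1 on leaving out DCKO DN3 library 1, 2 or 3 or Control DN3b library 1, 2 or 3. Genes lower numbered 2 with upper quartile factors and 4 with library totals alone, which move the median of all genes to -0.10 and -0.16. Values near 0, none of them called, turned sign in this comparison. Nhp2 was -0.03 with upper quartile factors, -0.09 with library totals and -0.01 without DCKO DN3 libraries 1 and 2, and ran from -0.07 to 0.12 with 1 library left out. Bysl ran from -0.11 to 0.08 and Nop2 from -0.10 to 0.04 with 1 library left out. With the GC offset Bysl was 0.09 and Nop2 0.13, and with replicate block and GC offset in 8 libraries 0.11 and 0.13. The cause was not tested.

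Between DCKO DN3 and Control DN3a the median of the 40 genes was 0.81 with upper quartile factors and 0.70 with library totals, which move the median of all genes to -0.26 and -0.38.

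The numbers of DCKO DN3 libraries do not pair the samples. With a replicate block in the 8 libraries of DCKO DN3 and Control DN3b the count of genes higher was 0, and in all 12 libraries Nop56 alone of the 3 lost its call (log2 0.31, adjusted p = 0.0542). The block changed no call among the 40 genes in either comparison with Control DN3a. Over all genes, 2635 were called between DCKO DN3 and Control DN3b, against 1062 with the block in 8 libraries, 1467 with the block and GC offset, 950 without DCKO DN3 libraries 1 and 2, and 1601 to 1730 without DCKO DN3 library 1 or 2 or Control DN3b library 2 or 3. The lowest count of any of the 40 genes in a library was 259, for Gar1.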
